A study of Drosophila melanogaster with 14 samples.

Results

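Transcripts of transposable elements (TEs) were compared between heads of Drosophila melanogaster carrying a tau transgene and control heads. The rows are all TE insertions of the total RNA table, identified by their FlyBase insertion numbers: 5392 insertions, out of 8718 features in the series' tables of TE insertions and small RNAs. The control group consisted of 3 libraries of genotype "Wild type" and the tau group of 3 libraries of genotype "tau transgenic". Each library was made from 500 ng of total RNA of 6 pooled heads, with ribosomal RNA depleted and strand kept, and 18 heads were used per genotype. The flies were grown at 25°C on standard food. The form of tau, the driver of the transgene, the age and the sex are not stated in the labels, and neither is whether tau and control flies share 1 genetic background. The labels call the libraries of a genotype independent biological replicates. The table holds TE insertions and no genes, so the head tissue could not be checked against marker genes, and in pooled heads fewer cells of a type and less RNA per cell cannot be told apart.

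TEs are DNA sequences that copy or move themselves within a genome. LTR retrotransposons of the Ty3/gypsy, Ty1/copia and Bel-Pao groups and non-LTR retrotransposons copy themselves through an RNA intermediate, so their transcripts are also the template of new copies. DNA transposons with terminal inverted repeats (TIRs) move as DNA. In the fly, small RNA pathways and heterochromatin keep TEs silent, and the non-LTR elements HeT-A and TART are kept at chromosome ends, where their copies form the telomeres. A name such as copia{}342 gives the family before the braces and the single genomic insertion, or copy, after them.

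Names were found for 5390 of the insertions, in 123 families, and the other 2 held 0 counts. At least 1 read was counted for 3137 insertions in 121 families. The library totals were 289818, 277415 and 232572 counts in control and 76721, 269102 and 331009 in tau, so tau 1 was the shallow library. Counts were expressed as CPM, the count as a share of the library total scaled with TMM factors and not divided by length, and genotypes were compared with edgeR's quasi-likelihood test. Tests were two-sided, p-values were adjusted after Benjamini and Hochberg, and 0.05 was the threshold. The libraries of a genotype varied by 42.2% at the level of single copies and by 9.31% at the level of family sums (biological coefficient of variation of edgeR), so family sums were the steadier measure. Levels are relative to the TE reads of the table. Values after ± are standard errors (SE) of the edgeR fit, which include the spread between libraries, or standard deviations (SD) where marked.

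TE families moved in both directions in tau heads. Of 116 families tested, 20 rose and 16 fell, 31.0% in all, 17.2% higher and 13.8% lower. The groups of libraries did not overlap for 43.1% of the families. The split depended on the scaling: library totals gave 13 higher and 21 lower, and 11 were higher and 17 lower under the size factors of the authors' deposited table. The 36 called families kept their direction under each scaling. The median log2 fold change over all families was 0.01, against -0.08 under library totals and -0.07 when the authors' size factors were used.

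**Figure D1:**
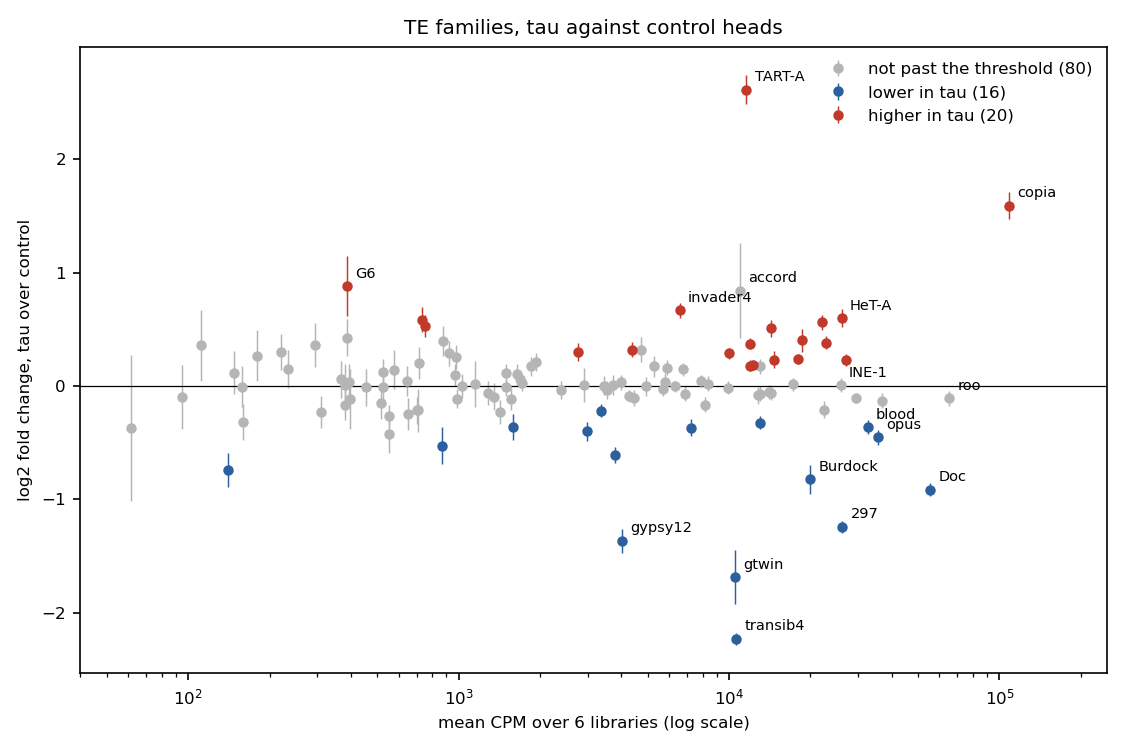
Log2 fold change (tau over control) of each of the 116 tested TE families against its mean CPM over the 6 libraries (log axis). Points are family sums, bars are 1 SE, red marks the 20 families higher and blue the 16 lower in tau. TART-A (2.61) and copia (1.59) lie highest, transib4 (-2.23) and gtwin (-1.68) lowest, and copia is also the family with the highest mean CPM.

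Gains and losses of TE reads were spread unevenly over families. To set them side by side, the counts were divided by the authors' size factors, which were solved from the mean of normalised counts in the authors' deposited table. The features over which these factors were set are not stated. If they were set on these TE rows, the scaling itself draws the totals together, so the scaled total is no measure of a change in all TE reads. It was 239471, 213855 and 209790 in control and 226220, 212908 and 229639 in tau, a ratio of 1.01, beside 0.846 for the raw totals. On this scale 50 families had a larger mean in tau, by 39450 scaled counts in all, and 71 had a smaller mean, by -37565.

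The LTR retrotransposon copia alone accounted for 23043 of these gained counts, or 58.4% of all gains. The telomeric pair TART-A and HeT-A added 5693 together. On the other side, the 5 families with the largest losses were Doc (-8132), the 297 family (-5001), transib4 (-3173), opus (-2838) and Burdock (-2654), which made up 58.0% of all losses. Without copia the scaled total was 208692 ± 14841 in control libraries and 187533 ± 7022 in those of tau (SD, n = 3 each). That is a ratio of 0.899. Copia was taken out because it had the largest gain, which lowers the tau total by construction, so this ratio is given with no test.

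**Figure D2:**
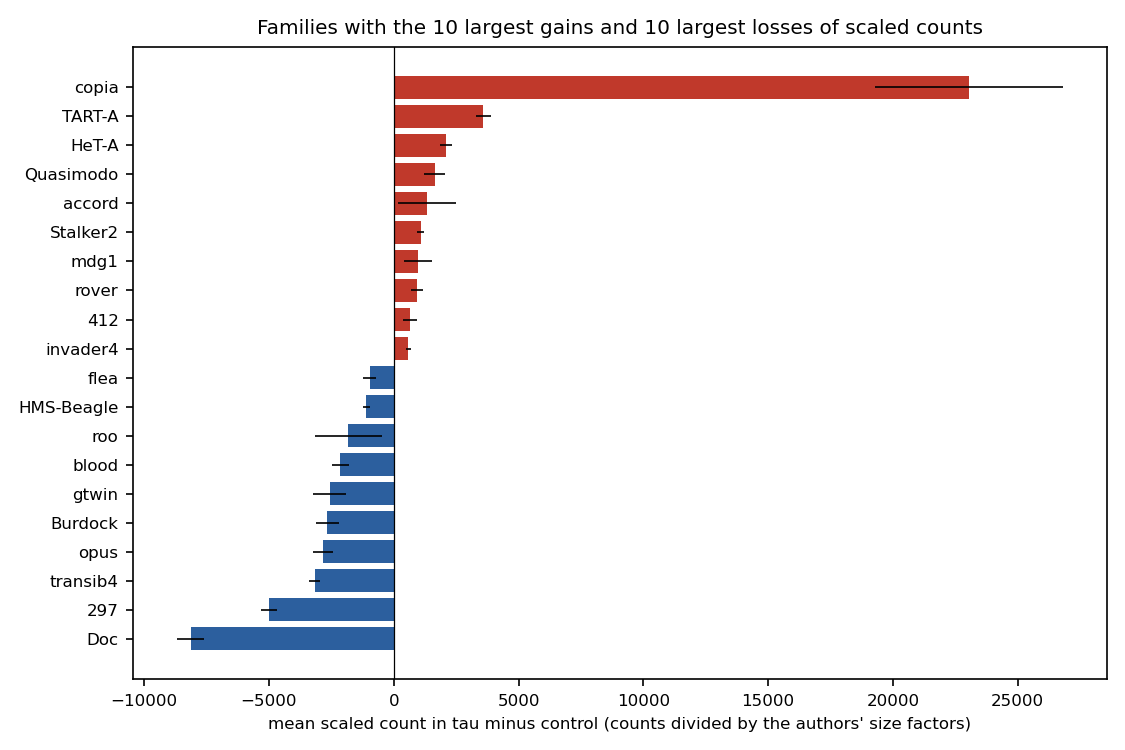
Mean scaled count in tau minus control for the 10 families with the largest gains and the 10 with the largest losses (counts divided by the authors' size factors). Bars are differences of means over 3 libraries per genotype and error lines are the standard error of the difference. The gain of copia (23043) exceeds that of TART-A (3588) and HeT-A (2105) and every loss, of which Doc (-8132) and the 297 family (-5001) were the largest.

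Among the families that rose, copia, named for its abundant transcript, had 56049, 55486 and 51195 CPM in control and 140460, 154500 and 194930 CPM in tau. Each tau library lay above all control libraries, and tau 3 was the highest. The log2 fold change was 1.59 ± 0.12 (SE, adjusted p = 3.20e-05, edgeR). TART-A, which carries its own reverse transcriptase, had 2903, 3879 and 2963 CPM in control and 22028, 18984 and 18757 in tau (2.61 ± 0.13, adjusted p = 1.91e-06). Its tau libraries also lay above all control libraries. HeT-A, which lacks a reverse transcriptase of its own, had 19309, 23196 and 19772 CPM in control and 29753, 32849 and 31803 in tau (0.60 ± 0.08, adjusted p = 8.92e-04).

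The other rises among well-counted families were smaller and lay mostly in the Ty3/gypsy group. Quasimodo, an errantivirus (a retrovirus-like element of insects), had 19343, 16743 and 17259 CPM in control and 27614, 26193 and 24994 in tau (0.56 ± 0.07). The errantivirus rover went from 11781 ± 346 to 16715 ± 1613 CPM (SD, n = 3 each). Stalker2 (0.38), Stalker (0.37), mdg1 (0.41), mdg3 (0.24), the 412 family (0.23), Stalker4 (0.19) and invader2 (0.18) completed the LTR elements named, with the Bel-Pao element 3S18 (0.23). Groups did not overlap in any of these families. The calls of 3S18, Stalker4 and invader2 were lost in 7 or 8 of 14 alternative settings, those of mdg1 in 4 and of the 412 family in 3, while copia, HeT-A, Quasimodo, rover, Stalker and Stalker2 kept theirs in all 14.

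Among the families that fell, the non-LTR retrotransposon Doc had 70128, 75833 and 71971 CPM in control and 40226, 38006 and 37433 in tau, so the tau libraries stood near 0.531 times the control level (-0.91 ± 0.06, adjusted p = 9.57e-06). The errantivirus family 297 had 36740, 37030 and 36771 CPM in control and 15372, 16505 and 14893 in tau, with little spread in either genotype (-1.24 ± 0.05, adjusted p = 1.32e-06). The DNA transposon transib4 had 17883, 17526 and 17040 CPM in control and 3539, 3830 and 3786 in tau (-2.23 ± 0.05, adjusted p = 3.17e-08). These 3 families fell in each of the 14 alternative settings.

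The errantivirus gtwin was also lower, but its control libraries were spread widely, with 19794, 15572 and 12465 CPM against 6194, 5519 and 3412 in tau (-1.68 ± 0.24, adjusted p = 0.00122). Burdock had 25374, 26923 and 24095 CPM in control and 16679, 15162 and 11540 in tau (-0.82 ± 0.13). The gypsy12 family, with fewer reads, had a log2 fold change of -1.36. Falls smaller than that of Burdock were measured for gypsy6 (-0.61), opus (-0.45), blood (-0.36), jockey (-0.32), the foldback element FB (-0.37) and invader3 (-0.22), whose call was lost in 5 of the 14 settings. Of the 12 families with the most reads, 4 did not pass the test: roo (-0.11, adjusted p = 0.267), HMS-Beagle (-0.13, adjusted p = 0.177), F (-0.10, adjusted p = 0.105) and INE-1 (0.01, adjusted p = 0.973), the last of which changed sign with the scaling.

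By class, the Ty3/gypsy list, its errantiviruses and the non-LTR list held families called in both directions. The counts stand beside 17.2% higher and 13.8% lower over all families. Of 47 Ty3/gypsy families tested, 14 rose and 10 fell, with a median log2 fold change of 0.04 beside 0.01 over all 116 families. Of the 14 errantiviruses among them, 2 rose and 4 fell (median 0.03). Of 32 non-LTR families, 4 rose and 3 fell (median -0.01). Of 19 TIR transposon families, 0 rose and 2 fell, transib4 and pogo (median -0.01). Of 6 Bel-Pao families 1 rose, of 4 Ty1/copia-group families 1 rose, and of 2 foldback families 1 fell. Both telomeric families tested rose, and the 1 Helitron family, INE-1, did not pass. The 5 families in no list held 0 calls. The lists were written with earlier results of these data known, so their counts are descriptions, and no list was tested against the other families.

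A family sum adds up many copies, so the families were also tested without the copy that held the most reads. In 49 of the 116 families this leading copy held at least 50% of the reads. Of the 36 called families, 34 could be tested without it: 13 kept their call and 21 did not pass, 6 of which changed sign. Over all 108 families tested in this way, 9.26% were higher and 6.48% lower. Summing fewer reads widens the error, so a lost call does not show that the other copies were alike in both genotypes.

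The rises of copia, HeT-A, Quasimodo, invader4, invader6, Stalker2 and the 412 family also passed in the sum of the copies beyond the leading one. So did the falls of Doc, the 297 family, Burdock, gtwin, blood and FB. A kept call does not show that a change was spread over the other copies. The other gtwin copies held 340, 270 and 244 counts in control and 33, 110 and 169 in tau. Of these, gtwin{}1686 held 174, 103 and 123 in control and 0 in each tau library. In FB, FB{}CG17600-FB-NOF held 223, 191 and 134 of the other copies' 1906, 1672 and 1442 counts in control. In tau it held 0, 12 and 14 of 368, 1211 and 1697. Copia without copia{}342, its leading copy, still had a log2 fold change of 1.44 ± 0.12 (adjusted p = 4.07e-05, edgeR), Doc without Doc{}406 one of -0.88 ± 0.14 (adjusted p = 0.00190), and the 297 family without 297{}950 one of -1.14 ± 0.08 (adjusted p = 1.04e-05).

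In transib4 and gypsy12 the sum of the other copies did not pass. The copy transib4{}1579 held 97.0% of transib4 reads in control and 86.2% in tau, and the other transib4 copies had 148, 171 and 117 counts in control and 26, 131 and 183 in tau. These remaining copies did not pass (-0.13 ± 0.18, adjusted p = 0.664). The copy gypsy12{}2214 held 77.4% of gypsy12 reads in control and 31.0% in tau, while the rest of gypsy12 had a value of 0.23 ± 0.16 (adjusted p = 0.373), opposite in sign to the family sum. For TART-A no other copy could be tested, since TART-A{}6259 made up 100% of its reads in control libraries and 99.98% in those of tau.

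In the opposite case, 3 families with no call rose once their leading copy was left out. They were the copia-group element 1731 (0.67 ± 0.17, adjusted p = 0.0239), the DNA transposon H, known as hobo (0.66 ± 0.15, adjusted p = 0.0169), and Doc4 (0.56 ± 0.16, adjusted p = 0.0425). The Bel-Pao element Max fell without its leading copy (-0.52 ± 0.11, adjusted p = 0.0102). These 4 families were named after their values were seen.

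**Figure D3:**
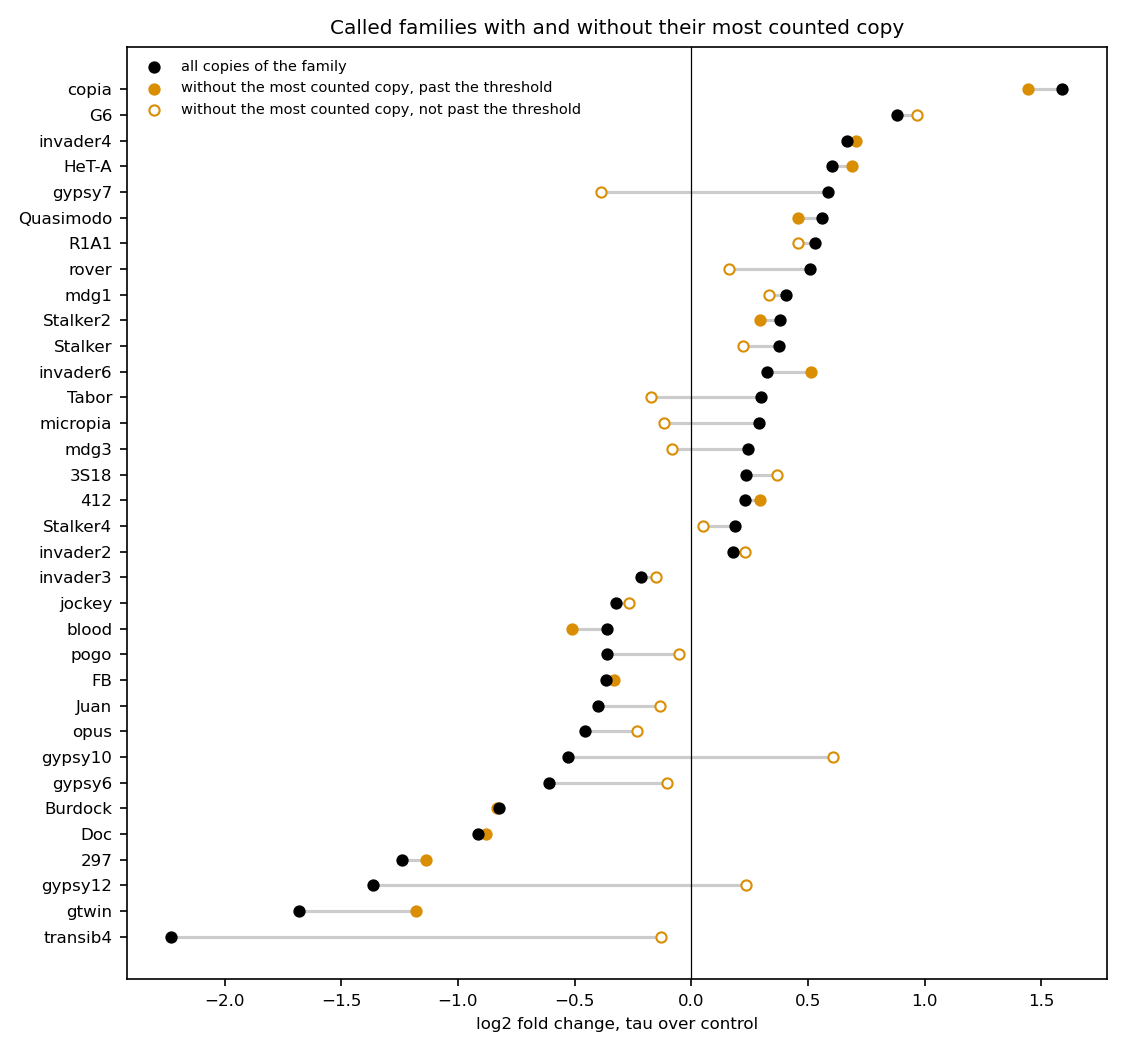
Log2 fold change (tau over control) of the 34 called families that could be tested without their most counted copy. Black dots are sums over all copies, orange dots are sums without the most counted copy, filled where past the threshold of 0.05 and open where not. The 2 dots lie close together for copia, Doc, Burdock and the 297 family, and far apart for transib4, gypsy12 and gypsy10.

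Among single copies, 1249 were tested, of which 32 rose (2.56%) and 42 fell (3.36%), 5.92% in all. Groups did not overlap for 29.2% of them. The counts of called copies moved when a library was left out: without control 3 there were 9 higher and 7 lower, without control 1 or without control 2 there were 17 and 15 each, without tau 2 there were 13 and 25, and 18 rose without tau 1 or without tau 3. DESeq2 called 70 in each direction. The 36 called families contained most of the called copies. The 20 families that rose held 186 tested copies, of which 28 rose and 3 fell, and the 16 families that fell held 217, of which 0 rose and 27 fell. The other 80 families held 846 tested copies, with 4 higher and 12 lower. Copies add up to their family, so this match is no independent observation.

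The best counted copies that rose belonged to copia. The copy copia{}342 (FBti0019151) had 14888, 16555 and 15323 CPM in control and 53833, 48131 and 61325 in tau (1.80 ± 0.11, adjusted p = 0.00101, edgeR), and copia{}298 (FBti0019113) had 11165, 12228 and 9401 against 25920, 25145 and 33377 (1.36 ± 0.15, adjusted p = 0.00726). Of 23 copia copies tested, 11 rose, 0 fell, and 22 had a positive log2 fold change. The copies were not alike in size of change. The value was 5.30 ± 0.41 for copia{}1349 (FBti0019364), with 32, 32 and 59 counts in control and 413, 1429 and 2459 in tau, against 0.40 ± 0.12 for the well-counted copia{}293, which did not pass (adjusted p = 0.132). The copies copia{}293 and copia{}910, the only tested copia copy with a negative value (-1.77, adjusted p = 0.447), were named after their values were seen.

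Of 8 HeT-A copies tested, 3 rose and 0 fell. All 8 had a positive log2 fold change, from 0.43 to 0.82. The copy HeT-A{}6270 (FBti0102113) had 2326, 2691 and 2307 CPM in control and 4220, 4318 and 4375 in tau (0.82 ± 0.10, adjusted p = 0.0105). Its call was lost in 3 of 14 alternative settings. The most counted copy, HeT-A{}6276, did not pass (0.43 ± 0.09, adjusted p = 0.0576). The 1 TART-A copy tested, TART-A{}6259 (FBti0102102), had 2971, 4044 and 3057 CPM in control and 22765, 18557 and 18811 in tau (2.58 ± 0.16, adjusted p = 0.00104). This was the largest log2 fold change of the 12 named copies that rose, which were limited to 2 per family. That limit left out copia{}1349, with a value of 5.30.

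Other well-counted copies that rose came from LTR families. The errantivirus copy rover{}1275 (FBti0019343) had 5707, 5665 and 5671 CPM in control and 9054, 9280 and 10438 in tau (0.76 ± 0.08, adjusted p = 0.00726). Quasimodo{}360 rose by a log2 fold change of 0.86, Quasimodo{}1100 by 0.65, Stalker2{}660 by 0.54 and Stalker{}2534 by 0.52. For 412{}2 (FBti0019521), with 662, 1070 and 955 CPM in control and 2636, 3658 and 3512 in tau, the value was 1.87 ± 0.23 (adjusted p = 0.0109), although the 412 family as a whole had a value of 0.23. The calls of Stalker2{}660 and Quasimodo{}1100 were lost in 9 of 14 alternative settings, that of Stalker{}2534 in 8 and that of Quasimodo{}360 in 5. Those of rover{}1275 and 412{}2 were lost in 2 and 1.

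Among copies that fell, transib4{}1579 (FBti0059640) had 17789, 17643 and 17080 CPM in control and 3305, 3255 and 3217 in tau, the smallest adjusted p of the 1249 copies (-2.43 ± 0.07, adjusted p = 4.52e-05). The copy gypsy12{}2214 (FBti0060275) had 4223, 4893 and 4707 CPM in control and 737, 649 and 663 in tau (-2.76 ± 0.12, adjusted p = 2.92e-04). Both kept their calls in all 14 settings. Of the 297 family, 297{}950 (FBti0020061) had 13025, 13640 and 12761 CPM in control and 5708, 4336 and 3192 in tau (-1.58 ± 0.21), and 297{}376 went from 6856 ± 1011 to 4016 ± 321 CPM (SD, n = 3 each, -0.77 ± 0.13). The copy gtwin{}19 (FBti0019538), which held 93.6% of gtwin reads in control, had 19083, 15243 and 11818 CPM in control and 5954, 4985 and 2887 in tau.

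Falls were also measured for flea{}148 (-0.85), jockey{}858 (-0.80) and blood{}1094 (-0.56), and for 2 copies of Burdock, Burdock{}1187 (-0.91) and Burdock{}1221 (-1.25). The calls of blood{}1094 and Burdock{}1187 were lost in 10 of the 14 settings, that of Burdock{}1221 in 8, that of 297{}376 in 7, that of flea{}148 in 6, and those of 297{}950, gtwin{}19 and jockey{}858 in 5 each. In all, 12 of the 42 copies that fell held 0 counts in each tau library, and 1 of the 32 that rose held 0 counts in each control library. Such copies passed the count filter only through the other genotype. Their share among all tested copies was not counted, so these numbers are descriptions and are not compared.

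The fall of Doc was uneven over its copies. Of 35 tested, 4 fell, 0 rose and 25 had a negative log2 fold change. The most counted copy, Doc{}406, had 6145, 4710 and 5233 counts in control and 416, 2909 and 3460 in tau and did not pass (-1.14 ± 0.27, adjusted p = 0.0783). The copy next in level, Doc{}CHKov1[Doc1420], lies in the gene CHKov1 and is linked in natural populations to resistance to an insecticide. It had 3585, 3708 and 3041 counts in control and 939, 3488 and 4029 in tau, with a log2 fold change of -0.01 ± 0.07 (adjusted p = 0.957), beside -0.91 ± 0.06 for the family. Next in level came Doc{}163, with 3084, 4587 and 3070 counts in control and 407, 295 and 137 in tau (-2.54 ± 0.93, adjusted p = 0.208, edgeR). After it came Doc{}325, with 1929, 2902 and 1379 in control and 262, 176 and 82 in tau (-2.41 ± 0.97, adjusted p = 0.258, edgeR). Neither of these passed. The Doc copies named here were chosen after their values were seen.

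Insertions whose name holds a gene numbered 55, of which 43 had at least 1 count and 35 were tested. Of these 35, 1 rose, mdg1{}CG42335[iso-1], with 112, 54 and 60 counts in control and 66, 188 and 246 in tau (adjusted p = 0.0402), and 1 fell, FB{}CG17600-FB-NOF (-4.25, adjusted p = 0.0194), beside 2.56% and 3.36% over all copies. The copy named for AGO2, the Argonaute protein of the short interfering RNA pathway that acts on TEs in somatic cells, was S{}AGO2[S1008]. It held 97, 110 and 62 counts in control and 32, 69 and 59 in tau and did not pass (-0.22 ± 0.36, adjusted p = 0.826). Genome positions of the insertions were not used here.

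**Figure D4:**
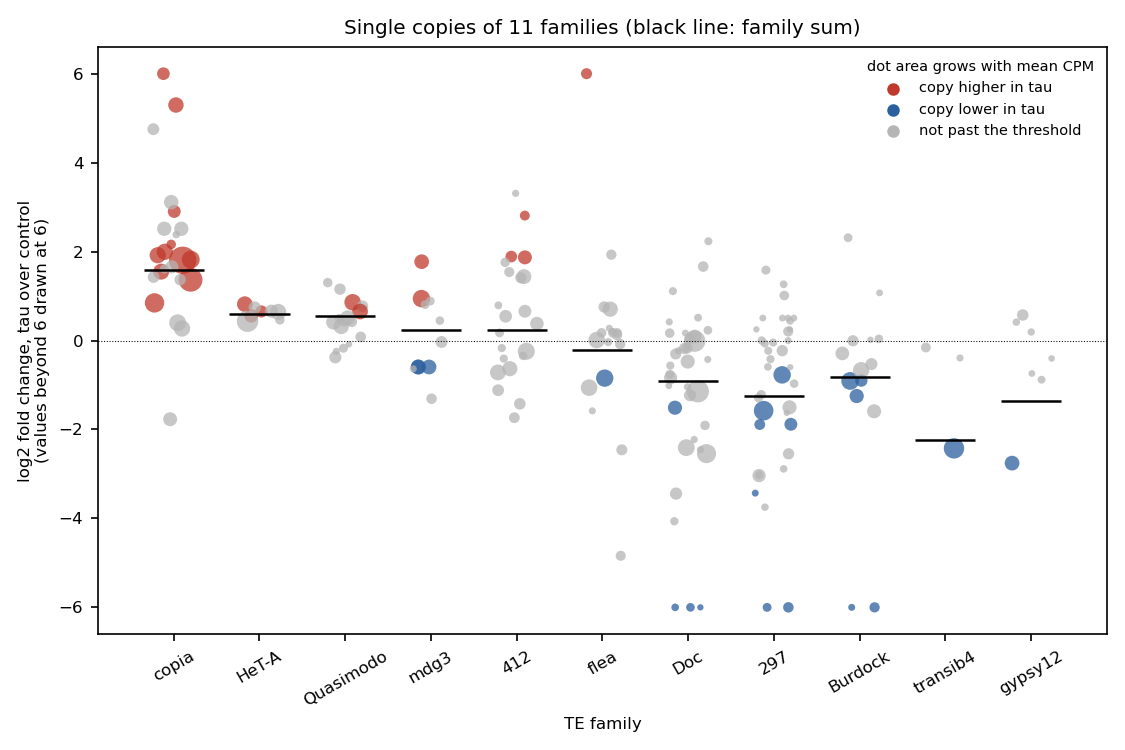
Log2 fold change (tau over control) of every tested copy of 11 families. Each dot is a copy, its area grows with mean CPM, values beyond 6 are drawn at 6, red and blue mark copies past the threshold, and the black line is the family sum. Copies of copia and HeT-A lie above 0 with 1 exception (copia{}910), those of mdg3 and the 412 family lie on both sides of the line at 0, and in transib4 and gypsy12 1 large copy lies far below the others.

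Whether copies of a family changed relative to one another was tested with edgeR's test of differential usage, with copies in the place of exons and families in the place of genes. This test compares each copy with its own family and so does not rest on the scaling between libraries. Of 105 families with at least 2 tested copies, 35 differed in their copy make-up (33.3%). They included 7 of the 19 testable families that rose, 11 of the 15 that fell and 17 of the 71 with no call.

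The strongest difference was in flea, a Ty3/gypsy family whose sum did not pass (-0.21, adjusted p = 0.0780). The copy flea{}810 (FBti0018961) held 0 counts in each control library and 119, 372 and 424 in the tau libraries. With a floor of 3 counts over the control group it was at least 370-fold higher. In the same family flea{}704 (FBti0018958) held 167, 378 and 182 counts in control and 0, 0 and 24 in tau. In the test of single copies flea{}704 did not pass (adjusted p = 0.094, edgeR). The copy make-up of flea had an adjusted p of 2.40e-14. A copy at 0 in all libraries of 1 genotype, such as flea{}810, passed the count filter only through the other genotype. The make-up values of flea and of the families below with such copies (Rt1b, gtwin and Doc) are descriptions for that reason. In invader4, a Ty3/gypsy family that rose (0.67), invader4{}1669 held 6, 2 and 3 counts in control and 81, 310 and 473 in tau, above the rise of its family (adjusted p = 1.02e-09 for the family's make-up), while invader4{}1639 did not pass (0.56 relative to its family, adjusted p = 0.974).

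In copia (adjusted p = 2.61e-08 for the make-up) the copies with the smallest p relative to their family were copia{}1466 and copia{}1349, by 3.78 and 2.60 on the log2 scale. The former held 17, 0 and 0 counts in control and 143, 625 and 1192 in tau. Its call as a single copy was lost in 6 of 14 alternative settings. In the non-LTR family Rt1b, whose sum did not pass, Rt1b{}1288 held 128, 162 and 132 counts in control. No tau library held a count of it (at least 116-fold lower), while Rt1b{}2732 held 19, 2 and 0 in control and 22, 28 and 54 in tau. In gtwin, gtwin{}1686 held 174, 103 and 123 counts in control. All tau libraries were at 0 for it (at least 110-fold lower), and gtwin{}1128 with 35, 35 and 30 against 8, 30 and 40 did not pass relative to its family (adjusted p = 0.157). In Tc1-2, a DNA transposon family whose sum did not pass (-0.01, adjusted p = 0.987), Tc1-2{}4132 held 24, 25 and 15 counts in control and 0, 1 and 3 in tau, and Tc1-2{}3905 did not pass relative to its family (adjusted p = 0.981).

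In Doc, Doc{}1407 with 140, 84 and 120 counts in control and Doc{}2142 with 70, 50 and 56 held 0 in each tau library. In transib4, transib4{}3834 held 114, 136 and 95 counts in control and 20, 109 and 149 in tau. The copy transib4{}3815 held 27, 21 and 20 against 4, 15 and 25. Both stood higher relative to their family, by 1.47 and 1.31 on the log2 scale, but neither rose. As single copies they had log2 fold changes of -0.16 and -0.39 and did not pass (adjusted p = 0.815 and 0.536, edgeR). These 8 families kept their call of a different make-up in each of 11 alternative settings.

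In 2 families, mdg3 and flea, copies were called in both directions. In mdg3, a Ty3/gypsy family, mdg3{}1683 (FBti0059744) had 3212, 4279 and 3522 CPM in control and 7211, 7170 and 6790 in tau (0.94 ± 0.13, adjusted p = 0.0143), and mdg3{}1184 (FBti0019281) had 1263, 1118 and 1092 against 4165, 3993 and 3712 (1.77 ± 0.11, adjusted p = 0.00104). The copies mdg3{}119, mdg3{}144 and mdg3{}1351 each fell (-0.60 ± 0.10, adjusted p = 0.0270) and held the same 931, 858 and 774 counts in control and 161, 525 and 707 in tau. The call of mdg3{}1184 was kept in all 14 settings, that of mdg3{}1683 was lost in 5, and those of mdg3{}119 and mdg3{}1351 were lost in 8 each. In flea the call of flea{}810 was lost in 1 setting and that of flea{}148 in 6, so the calls in both directions did not hold under every setting.

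Identical counts of this kind are a feature of the table. Among insertions with at least 30 counts over the libraries, 15 sets of copies of a family, 36 copies in 13 families, held the same count in all 6 libraries. How reads that match several copies were handled is not stated in the labels or files, so such copies are 1 observation and not several. The 3 mdg3 copies were the only called members of such sets. The copies beyond the first of each set held 1.45% of all counts. With each set kept once, which removes mdg3 copies that fell, the family test gave a log2 fold change of 0.55 for mdg3 in place of 0.24. With all copies kept except mdg3{}1683, the most counted one, the value was -0.08 ± 0.07 and did not pass (adjusted p = 0.446, edgeR). Which sum is the better measure of mdg3 cannot be told while the handling of shared reads is not stated.

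The concentration of TE reads was measured as an effective number, the number of equally abundant insertions or families that would give the same Shannon entropy. Over insertions it was 385, 379 and 391 in control and 329, 353 and 337 in tau, a ratio of 0.882. Over families it was 50.8, 51.1 and 51.2 in control and 47.2, 45.9 and 42.1 in tau, a ratio of 0.883. Tau libraries lay below all control libraries for both measures (exact permutation p = 0.1 each, two-sided, the smallest that 3 against 3 allows). The share of copia was 5.58% ± 0.22 in control libraries and 15.8% ± 2.48 in those of tau (SD, n = 3 per genotype). Copia was then taken out because it had the largest gain, so these values carry no test. Without it, over families the effective number was 51.3 ± 0.14 in control and 54.9 ± 0.08 in tau, and over insertions it was 381 ± 4.71 and 387 ± 20.5 (SD, n = 3 per genotype).

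The numbers of insertions detected overlapped between the genotypes once depth was made equal. At 70000 reads per library, 1853, 1792 and 1802 insertions were expected in control and 1696, 1792 and 1847 in tau (exact permutation p = 0.4).

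**Figure D5:**
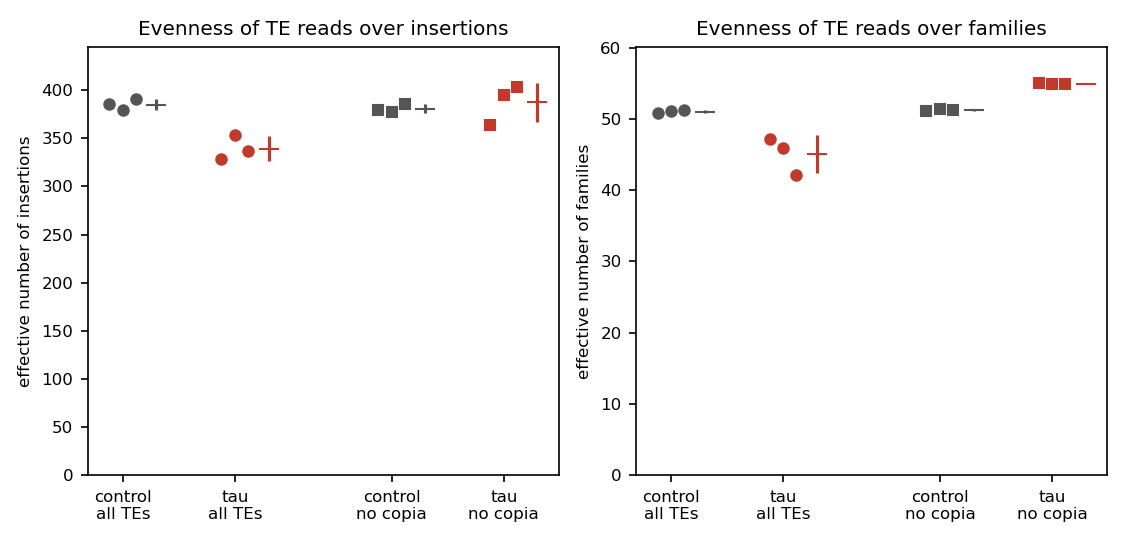
Effective number of insertions (left) and of families (right) per library, over all TEs (circles) and without copia (squares). Grey marks control and red marks tau, each with the mean and SD of 3 libraries beside the points. Over all TEs the tau libraries lie below the control libraries, and without copia the families of tau (54.9) lie above those of control (51.3).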

How the data were processed

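Total RNA of 3 control and 3 tau head samples was measured. Sortmerna with the TE reference of FlyBase release 6.12 served the authors for read extraction, per the labels (series design text). The submitters' processing notes name Trimmomatic (0.36) as well as DESeq2 (1.14.1). The deposited values per insertion are unnormalised whole-number read counts. Beside them, the authors' deposited table gives a log2 fold change, p-values, adjusted p-values and normalised mean counts, a signal that follows the authors' size factors. Strand setting and the treatment of reads shared by several copies are not stated in the labels or files, so values of near-identical copies are uncertain. The small RNA table was not used here.

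Counts were tested with edgeR 4.0.16 in R 4.3.3 (TMM factors, filterByExpr defaults, quasi-likelihood F-test, standard errors from the log2 fold change and F) on insertions, on family sums and on family sums without the most counted copy. Family spellings that differ by case or by "-element" were joined. Copy make-up was tested with diffSpliceDGE. The tests were run on simulated data with known changes first. The simulated features shared the same dispersion and had balanced rises and falls, so that run does not measure error rates in these data. Alternatives were RLE factors, library totals, the authors' size factors (solved from their mean of normalised counts), every feature with at least 1 count, a mean count of at least 50, DESeq2 1.42.0, a replicate block and leaving out each library. Keeping identical copies once was chosen after seeing the data. Named insertions were the 12 rises and 12 falls with the highest mean CPM among those past the threshold of 0.05 without overlap, at most 2 per family. Named families were the 12 rises and 12 falls with the highest mean CPM and the 12 most counted. For copy make-up, the 8 families with the smallest p were named, each with the 2 copies of smallest p. Members, lists and tests were chosen with earlier results of these data known. Positions and sequences of the insertions were not used here.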

Additional observations from a re-analysis of the deposited data

How the results depend on the processing

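Named families and insertions kept their direction under each alternative, apart from INE-1 and transib4{}3834. The sign of INE-1 turned in 7 of 14 settings. These included -0.01 with RLE factors, DESeq2, without tau 2 and with identical copies kept once. They also included -0.06 with the authors' size factors and -0.07 with library totals. With 1 library left out, INE-1 ranged from -0.03 to 0.06. The copy transib4{}3834 turned to 0.02 without tau 1 (-0.33 to 0.02 without 1 library). Neither was called. Families numbered 11 higher under the authors' size factors and 13 under library totals (20 as reported), and those without their leading copy 12 lower with library totals (7 as reported). Insertions numbered 70 higher and 70 lower with DESeq2 and 21 higher with every insertion of at least 1 count kept. Leaving out 1 library gave 9 to 18 insertions higher and 7 to 33 lower, and 5 to 11 families higher without their leading copy. Copy make-up differed in 21 families by the Simes combination in place of 35. The cause was not tested.

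Same-numbered tau and control libraries deviated from their group means with correlations of -0.03, 0.09 and 0.27 over families. Libraries of different numbers had values from -0.326 to 0.229, so 0.27 was the highest. Over insertions the same-numbered values were -0.034, 0.056 and -0.008, and the others ran from -0.057 to 0.065. The numbers were not taken as pairs. With a replicate block 6 insertions were higher and 3 lower, 5 families were higher without their leading copy, and 23 families differed in copy make-up. The block takes 2 of the 4 residual degrees of freedom.

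The effective number of insertions turned from a ratio of 0.882 to 1.02 without copia, and that of families from 0.883 to 1.07. The ratio of raw TE totals, 0.846, turned to 1.01 with the authors' size factors and to 1.13 without tau 1, the shallow library (0.649 to 1.13 without 1 library). The planned description by genome position was not run.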
